A study of Mus musculus with 6 samples.

Results

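Genes that act in the removal of the nucleus and other organelles from lens fibre cells were examined in lenses with and without Tdrd7. The 8 genes were Dnase2b, Hsf4, Bnip3l, Lmna, Lmnb1, Lmnb2, Cdkn1b and Cdkn1c, chosen by name from 19057 genes named on an Illumina mouse BeadArray, and all of the probes that the platform annotation gives to them were taken, 19 of 45281. Total RNA came from lenses of mice at postnatal day 30, and 3 Tdrd7 null samples were set against 3 Tdrd7 heterozygous samples, all on a mixed C57BL/6J and C3A.Blia background. The controls are thus themselves heterozygous for the mutation, and no wild-type lenses entered the comparison. The labels do not describe the allele and give neither the number of animals in a sample nor whether replicates are separate animals, so the p-values speak only of the spread among these 6 samples, part of which may be technical. Each sample was hybridised to 1 array, with heterozygous arrays numbered from 1 to 3 and null arrays from 4 to 6.

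A lens fibre cell differentiates from an epithelial cell at the lens equator, leaves the cell cycle, elongates, fills with crystallins and then loses its nucleus, mitochondria and endoplasmic reticulum, which would scatter light. Dnase2b encodes DLAD, the acid nuclease that degrades fibre cell DNA, and in mice lacking it DNA persists in the lens core and cataract develops. Hsf4 is a heat shock transcription factor that the lens needs for the last steps of fibre maturation and for Dnase2b expression. Bnip3l, also called Nix, is an outer mitochondrial membrane receptor that hands mitochondria to autophagosomes. Lmna, Lmnb1 and Lmnb2 encode the lamins, the filaments under the nuclear membrane, which are dismantled when the nucleus is lost. Cdkn1b (p27Kip1) and Cdkn1c (p57Kip2) are inhibitors of cyclin-dependent kinases that hold fibre cells out of the cell cycle.

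None of the 8 genes passed the test between null and heterozygous lenses. Intensities were background-corrected, quantile normalized and put on a log2 scale, so every level below is a log2 intensity and every difference is null minus heterozygous on that scale. A probe was called detected where its deposited detection p-value was under 0.05, and was tested where it was detected on at least 3 of 6 arrays, which held for 14 of the 19 member probes and for at least 1 probe of each gene. Of these 14 probes 0 had an adjusted p under 0.05 in limma, whereas 26 of all 14902 probes tested did (0.174%), and 0 had an unadjusted p under 0.05, against 8.7% of all probes tested. Their adjusted p ran from 0.601 to 0.976. The unadjusted count moved with the setting, from 0 to 5 over the 17 alternatives. It was 5 of 14 on the authors' series matrix values with the replicate number as a block (Hsf4, Bnip3l, Cdkn1c and 2 probes of Lmna), where 14.2% of all probes were under 0.05, and 3 of 14 with array weights (1 probe each of Dnase2b, Lmna and Lmnb2), where 15.2% were. The smallest adjusted p of a member probe in any alternative was 0.183, for Cdkn1c with that block. Taking for each gene its tested probe with the highest mean, called its main probe, 5 genes had higher and 3 lower means in null lenses, with differences from −0.35 for Hsf4 to 0.47 for Cdkn1c and a median of 0.12, against a median of 0.01 for all probes tested. The number of probes passing on the whole array depended on single arrays, from 2 without null array 6 to 30 without null array 4. On the series matrix values it was 35 with the block and 9 without it. No member probe passed in any of these settings.

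**Figure D1:**
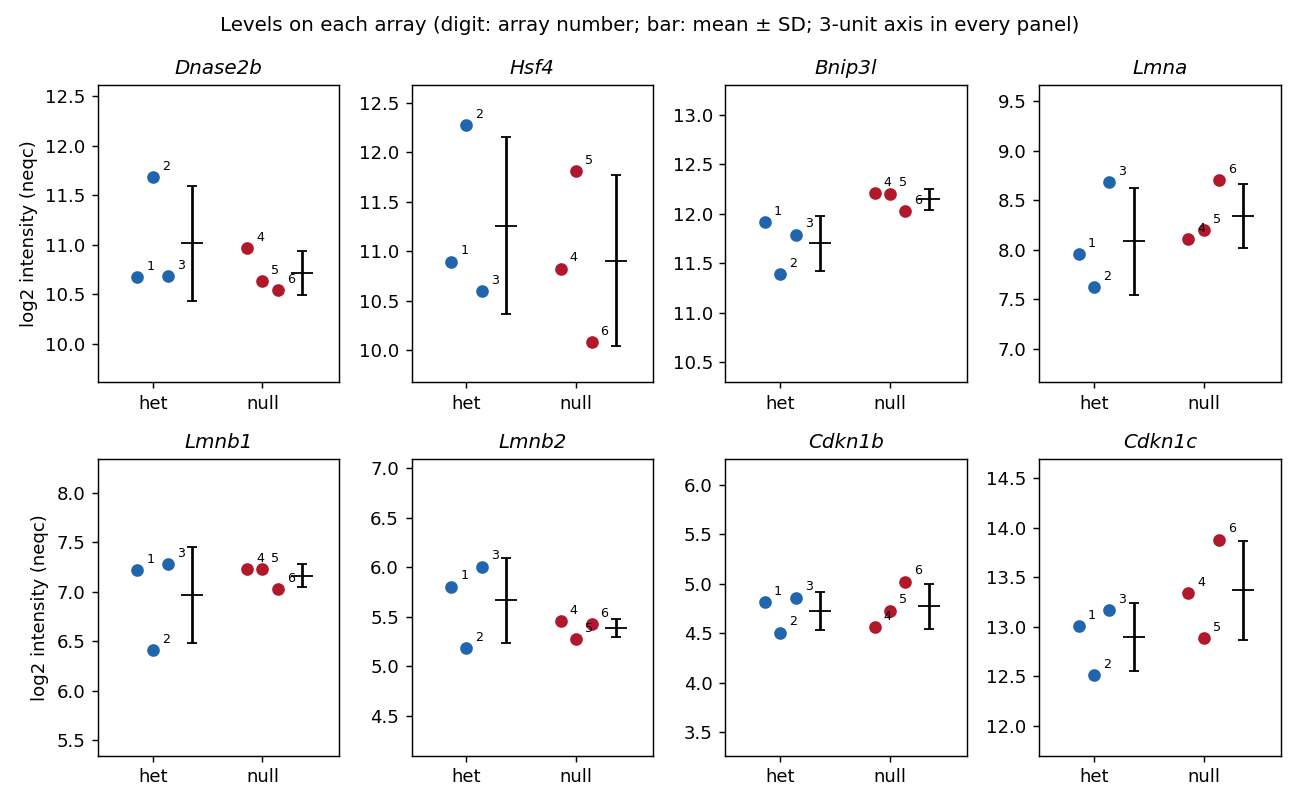
Log2 intensity of the main probe of each of the 8 genes on the 3 heterozygous (blue) and 3 null (red) arrays, with the array number beside each point and the mean ± SD as a black bar. Heterozygous array 2 is the highest of the 6 for Dnase2b and Hsf4 and the lowest for the other 6 genes, and only for Bnip3l do the groups not overlap.

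Several facts of the whole series bear on these values. Tdrd7 itself was at 13.74 to 14.17 on the heterozygous arrays and 9.65 to 10.49 on the null arrays, a difference of −3.88 ± 0.26 (SE, limma adjusted p = 0.00139), which follows the labels. Of 12 lens fibre markers, Tdrd7 among them, 12 were detected on heterozygous array 1 and 11 on each of the others, and the 11 tested were bright throughout. The summed level of the 12, with Tdrd7 included, was 301534 to 312192 on heterozygous and 278507 to 291422 on null arrays. Heterozygous array 2 had the fewest detected probes (12655, against 14203 to 16204 on the others) and the lowest summed level of 12 lens epithelium markers, 9507 against 17406 to 23228 on the other 5 arrays. The summed level of 15 leucocyte markers was 106 to 143 on the heterozygous arrays and 400, 5677 and 1043 on null arrays 4, 5 and 6, with 2 to 4 of the markers detected in heterozygous and 10 to 13 in null samples. Of the 10 tested, 0 passed in limma (smallest adjusted p = 0.0623). Lyz2, C1qb, C1qc, Fcer1g, Cd52 and Cd14 were detected on 0 heterozygous arrays and were tested only because of their null arrays, so their direction is not read here. The tested markers detected in both groups differed by 3.79 for Laptm5, 1.21 for Cd53, 0.22 for Csf1r and −0.13 for Aif1. Retinal photoreceptor markers, with 10 of 10 tested higher and a median difference of 0.57, and pigment cell markers of the iris and ciliary body, with 4 of 4 tested lower and a median of −0.51, had 0 members past the threshold in limma and 1 each at an unadjusted p under 0.05. Single heterozygous arrays weigh on both. On arrays 1 to 6 in order, the summed photoreceptor level was 213, 1301, 993, 1601, 1081 and 1234, lowest on heterozygous array 1. The summed pigment level was 95.6, 276, 107, 88.1, 59.3 and 98.8, highest on heterozygous array 2. The part of these cell types in the results below was not tested, and in whole-lens RNA fewer cells of a type cannot be told apart from less RNA per cell.

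The nuclease Dnase2b was well above background in all 6 lenses. Its main probe was at 10.68, 11.68 and 10.69 on heterozygous arrays 1, 2 and 3 and at 10.96, 10.63 and 10.54 on null arrays 4, 5 and 6. On this normalized scale heterozygous array 2 stood above the other 5, which lay within a narrow band, and the groups overlapped. In raw intensity it did not: the probe was at 2064, 2283 and 1350 on heterozygous arrays 1, 2 and 3. On null arrays 4, 5 and 6 the raw values were 2330, 2034 and 1499. The part of the normalization in this was not tested. The means were 11.02 ± 0.58 (SD, n = 3) in heterozygous and 10.71 ± 0.22 in null lenses, a difference of −0.30 ± 0.30 (SE, 95% interval −0.98 to 0.38, limma adjusted p = 0.836). As a ratio, null over heterozygous was 0.81 with an interval from 0.506 to 1.30. Without heterozygous array 2 the difference was 0.03, so its sign rests on that array. The pair of further Dnase2b probes was much dimmer, with raw intensities of 79.7 to 138 on the first and 59.3 to 95.6 on the second, and both gave a higher mean in null lenses, by 0.34 ± 0.29 (adjusted p = 0.806) and 0.31 ± 0.34 (adjusted p = 0.854). The last of these was detected on 2 of 3 heterozygous arrays, and its difference was −0.04 without heterozygous array 2. The probes of Dnase2b therefore did not share a sign, and across the 6 arrays the main probe followed the first dim probe with a Pearson r of 0.40 and the second with −0.72.

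Hsf4 varied most among the members. Its only probe was at 10.90, 12.27 and 10.60 on heterozygous arrays 1, 2 and 3. On null arrays 4, 5 and 6 it was at 10.82, 11.81 and 10.09. Within each group 1 array stood well above the others, heterozygous array 2 and null array 5, and the range within a group was 1.68 in heterozygous and 1.72 in null lenses. The difference between the group means was smaller, at −0.35 ± 0.51 (95% interval −1.49 to 0.79, limma adjusted p = 0.895), which in fold terms runs from 0.355 to 1.73. Of all probes tested only 2.01% had a larger standard error. In this fit without pairs the sign turned without heterozygous array 2 (0.15) and without null array 6 (0.05). On the series matrix values, where samples carry replicate numbers, Hsf4 was lower in the null sample in 3 of 3 same-numbered pairs, by −0.07, −0.47 and −0.50. The labels do not say that same-numbered samples are pairs, and the pairing was chosen from these same data. With the replicate number as a block the difference was −0.35 ± 0.13 (unadjusted p = 0.0329), and it did not pass (limma adjusted p = 0.303). All 3 pairs had one sign for 4 of the 8 main probes, Hsf4, Bnip3l, Lmna and Cdkn1c, and for 38.5% of all probes tested. The main probes of Dnase2b and Hsf4 had a Pearson r of 0.71 over the 6 arrays. That value is a description only, since the points share their arrays and both probes were highest on heterozygous array 2 after normalization.

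Because Hsf4 is a regulator of Dnase2b, the promoters of the members were searched for the heat shock element, the site that heat shock factors bind, spelled as GAANNTTC or TTCNNGAA, each of which reads the same on both strands. RefSeq promoter windows (GRCm38.p6, 250 bases before to 50 after the gene start) were at hand for 4 members, Dnase2b, Lmna, Lmnb2 and Cdkn1b. Matches were found in the window of Dnase2b and in 1 of 2 windows of Lmna, and these are the windows shown, while 15.1% of 32851 promoter windows of that length hold a match (4946 windows). The Dnase2b window lies at chr3:146615549-146615848 and that of Lmna at chr3:88493263-88493562, both on the minus strand and written 5′ to 3′, with the match in capitals.
Dnase2b: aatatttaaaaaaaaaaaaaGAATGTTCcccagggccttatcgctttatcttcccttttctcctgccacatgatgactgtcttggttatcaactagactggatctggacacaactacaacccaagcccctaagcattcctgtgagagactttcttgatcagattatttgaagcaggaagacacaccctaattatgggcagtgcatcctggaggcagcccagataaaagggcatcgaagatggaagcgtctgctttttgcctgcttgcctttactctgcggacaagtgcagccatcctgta
Lmna: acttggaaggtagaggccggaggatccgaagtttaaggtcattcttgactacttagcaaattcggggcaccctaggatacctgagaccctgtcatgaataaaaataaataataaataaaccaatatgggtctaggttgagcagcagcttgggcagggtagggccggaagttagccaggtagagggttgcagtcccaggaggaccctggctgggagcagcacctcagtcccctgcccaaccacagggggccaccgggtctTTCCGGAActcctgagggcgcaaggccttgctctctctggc
The Dnase2b match begins 230 bases before the gene start and the Lmna match at base 10 of the gene. The hypoxia response element, searched as ACGTG or GCGTG on both strands because Bnip3l is a known target of the hypoxia-inducible factor, was found in 1 of 2 windows of Lmnb2 and in that of Cdkn1b, and in 43.8% of all windows. No window was at hand for Bnip3l itself, so the search says nothing of that gene. A match describes letters in these windows and does not show binding.

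Bnip3l, the mitophagy receptor, came closest to a difference among the main probes. It was at 11.92, 11.39 and 11.79 on heterozygous arrays 1, 2 and 3 and at 12.21, 12.20 and 12.02 on null arrays 4, 5 and 6. All 3 null values lay above all 3 heterozygous values, as was the case for 1 of the 8 main probes and 2 of the 14 tested member probes, against 15.3% of all probes tested whose groups did not overlap in either direction. The difference was 0.45 ± 0.22 (95% interval −0.05 to 0.94, unadjusted p = 0.0713, limma adjusted p = 0.614), a ratio of 1.36 with an interval from 0.968 to 1.92. It was 0.28 without heterozygous array 2, the lowest of the 6, and 0.25 without that array and null array 5 together, and it was above 0 in all 17 alternatives run. In several of them its unadjusted limma p was under 0.05, such as 0.0223 without background correction and 0.0209 with the replicate block. Its lowest adjusted p was 0.263. On the series matrix values the same-numbered pairs differed by 0.29, 0.81 and 0.24. The related receptor Bnip3 was detected on none of the 6 arrays with its 1 probe.

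**Figure D2:**
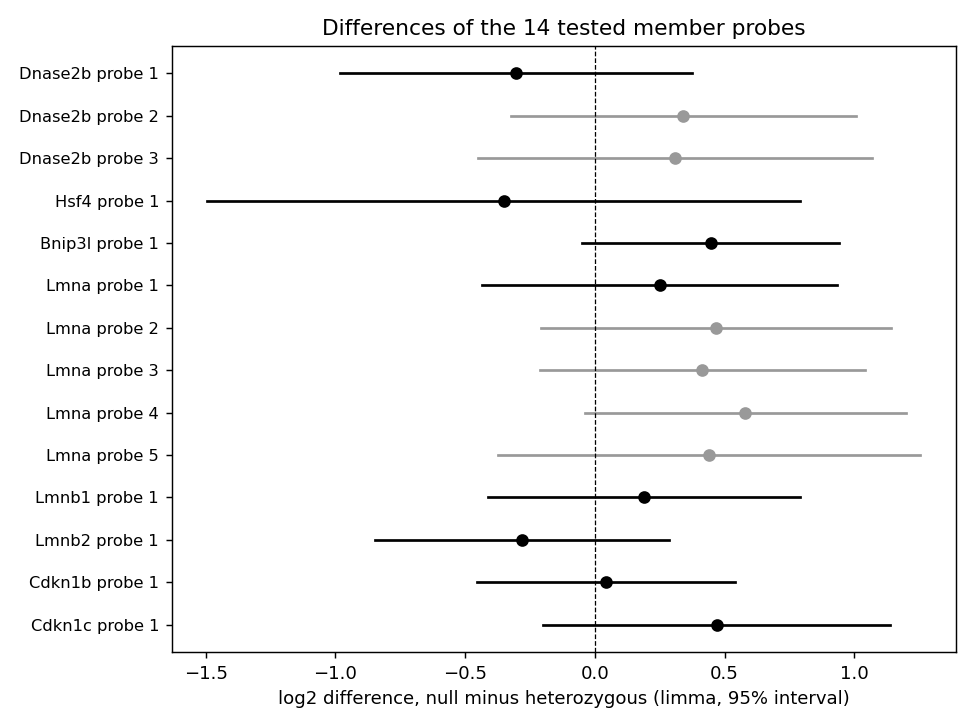
Difference of each of the 14 tested member probes, null minus heterozygous on the log2 scale, as a point with its 95% interval from limma, with main probes in black and further probes of the same gene in grey, numbered from the brightest. All 14 intervals include 0.

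Among the lamins, Lmna had 6 probes, of which 5 were tested, and the 5 had higher means in null lenses without passing. The main probe was at 7.96, 7.62 and 8.68 on heterozygous arrays 1, 2 and 3 and at 8.11, 8.20 and 8.71 on null arrays 4, 5 and 6. The groups overlapped, with heterozygous array 3 and null array 6 close together at the top, and the difference was 0.25 ± 0.30 (95% interval −0.43 to 0.93, limma adjusted p = 0.872). It was 0.02 without heterozygous array 2 and −0.09 with array weights. The other 4 tested probes differed by 0.41 to 0.58, with adjusted p from 0.601 to 0.798, and were highest on null array 5. The probe with the difference of 0.58 was at 5.88, 5.87 and 5.89 on heterozygous arrays 1, 2 and 3 and at 6.07, 7.06 and 6.25 on null arrays 4, 5 and 6. Its groups did not overlap, the heterozygous values lay almost on one another, and null array 5 stood apart, which is also the array with the highest summed level of leucocyte markers (5677). Without null array 5 its difference was 0.28, and without both heterozygous array 2 and null array 5 it was 0.29. Between the 4 probes the Pearson r over the 6 arrays was 0.77 to 0.98, but between each of them and the main probe it was −0.47 to 0.16. On the normalized scale the Lmna probes thus disagree on which arrays were high. In raw intensity they were closer, with the 4 probes highest on null array 5 and the main probe at 464 on null array 6 and 439 on null array 5. Raw intensity on heterozygous array 2 was lowest for the main probe (150) and lowest or next to lowest for the 4 probes (80.0 to 130). The platform annotation ties 4 of the 6 probes to 1 RefSeq transcript and 2 to another, but both kinds were among the 4 probes that followed each other, so the split does not follow the transcript. The sixth probe was detected on 1 null array only and was not tested.

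The B-type lamins are present in most cells, and Lmnb1 and Lmnb2 each had 1 tested probe here. Lmnb1 was at 7.22, 6.41 and 7.28 on heterozygous arrays 1, 2 and 3 and at 7.23, 7.23 and 7.03 on null arrays 4, 5 and 6. Apart from heterozygous array 2, the values lay between 7.03 and 7.28, and the difference of 0.19 ± 0.27 (95% interval −0.41 to 0.79, limma adjusted p = 0.891) became −0.09 without that array. Lmnb2 was at 5.80, 5.18 and 6.00 on heterozygous arrays 1, 2 and 3 and at 5.45, 5.28 and 5.42 on null arrays 4, 5 and 6. Here the null values lay between heterozygous array 2 and the other 2 heterozygous arrays, and the difference was −0.28 ± 0.25 (95% interval −0.85 to 0.29, adjusted p = 0.815). Without heterozygous array 2 it was −0.54 (adjusted p = 0.473), and the sign was the same in all 17 alternatives. A second probe of each of these genes was detected on 0 of 6 arrays. The lamins thus did not share a direction on their main probes.

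The 2 cell cycle inhibitors differed in how well they were measured. Cdkn1c was bright, at 13.01, 12.51 and 13.17 on heterozygous arrays 1, 2 and 3 and at 13.34, 12.88 and 13.88 on null arrays 4, 5 and 6. Null array 6 was highest and heterozygous array 2 lowest, and the groups overlapped through null array 5. The difference was 0.47 ± 0.30 (95% interval −0.20 to 1.14, limma adjusted p = 0.725), a ratio of 1.39 with an interval from 0.872 to 2.20. It ran from 0.22 to 0.72 over the 17 alternatives, and it was 0.22 without null array 6. On the series matrix values Cdkn1c was higher in the null sample in 3 of 3 same-numbered pairs, by 0.33, 0.37 and 0.71. With the replicate block, which was chosen from these same data, the difference was 0.47 ± 0.12 (unadjusted p = 0.00771) and did not pass (limma adjusted p = 0.183). The Cdkn1c probe reached 34.8% of the brightest signal of an array at most, and no member probe came within 2-fold of it. Cdkn1b was near background on all 3 of its probes. Its 1 tested probe stood above background on 2 arrays of each group, with raw intensities of 62.2 to 81.1, and its difference was 0.04 ± 0.22 (95% interval −0.45 to 0.54, adjusted p = 0.976). The other Cdkn1b probes were detected on 0 of 6 arrays, so at this signal the data say little of Cdkn1b in either group.

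After normalization, the main pattern in the main probes of these genes lay inside the heterozygous group. On heterozygous array 2, Dnase2b and Hsf4 were the highest of the 6 arrays and Bnip3l, Lmna, Lmnb1, Lmnb2, Cdkn1b and Cdkn1c the lowest, a pattern seen in the values and given as a description. In raw intensity Dnase2b was highest on null array 4 and Hsf4 on null array 5 (4157, against 3789 on heterozygous array 2). The other 6 genes were lowest on heterozygous array 2 in raw intensity too. Over all probes tested, the highest Pearson r of that array with another was 0.946, against 0.962 to 0.984 for the others. Its array weight was 0.265, against 0.516 to 3.14. Set against the mean of heterozygous arrays 1 and 3, array 2 was 1.00 higher for the main probe of Dnase2b and 1.53 higher for that of Hsf4. For the main probes of the other 6 genes it differed by −0.33 for Cdkn1b to −0.84 for Lmnb1. All 8 main probes had heterozygous array 2 at an extreme, as did 57.0% of all probes tested, 27.3% at the top and 29.7% at the bottom. For each of the 8 main probes the range within the heterozygous arrays exceeded the difference between the groups, as it did for 83.2% of all probes tested. The median of that range was 0.84 for the main probes and 0.57 for all probes tested. The 12 lens epithelium markers were lowest in sum on the same array, and their part in this pattern was not tested. With the array left out, 4 of the 8 main probes changed sign, Dnase2b (0.03), Hsf4 (0.15), Lmnb1 (−0.09) and Cdkn1b (−0.07).

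**Figure D3:**
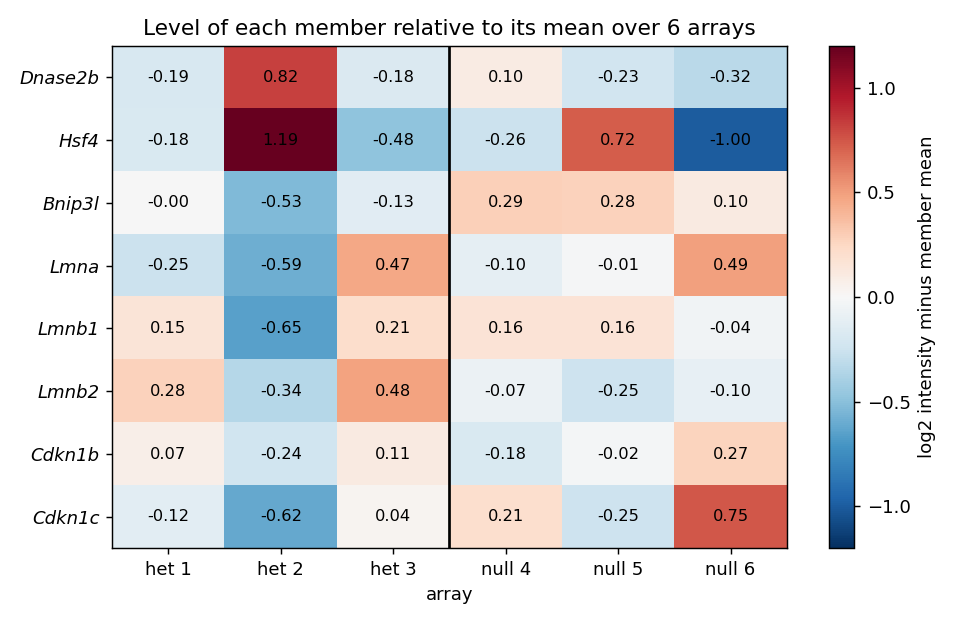
Log2 intensity of the main probe of each gene on each array, minus the mean of that gene over the 6 arrays, printed in each cell and coloured from blue (lower) to red (higher), with a line between heterozygous and null arrays. Heterozygous array 2 holds the highest value of Dnase2b and Hsf4 and the lowest of the other 6 genes.

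The genes whose level over the 6 arrays was most like that of a member were found among 8943 other tested genes by Pearson r. For Dnase2b these were Zfpm2 (0.997), Sez6 (0.996) and Popdc3 (0.992), and for Hsf4 Rnf19b (0.999), Ppp1r11 (0.994) and Pold2 (0.993). For Bnip3l they were Alg14 (0.993), Bhlhe40 (0.992) and Epb41l3 (0.992), and for Cdkn1c Rab15, Psmd7 and Rcan2 (0.985 to 0.990). With 6 arrays and this many genes such values are common, and the arrays that stand apart weigh on them. None of the 3 nearest genes of any member passed the test between groups (adjusted p from 0.503 to 0.967).

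Other genes of the same processes were counted in 6 lists, which held 78 tested genes besides the members. Cdkn1a and Cdkn2a had been detected on 0 heterozygous arrays and entered only through their null arrays, so the counts were made, after the values were seen, over the other 76 genes. Of these 0 passed in limma with adjustment over the whole array, and 7 had an unadjusted p under 0.05, which is 9.21% against 8.13% of all 14719 probes detected in both groups, and their median difference was 0.09. For 15 of the 76 genes (19.7%) the groups did not overlap, against 14.4% of those probes. Among 11 tested genes of DNA degradation, Trex1, a 3′ exonuclease that clears cytosolic DNA, was at 9.49, 10.65 and 9.91 on heterozygous arrays 1, 2 and 3 and at 8.99, 7.54 and 8.004 on null arrays 4, 5 and 6. The Trex1 groups did not overlap, and the difference of −1.84 ± 0.40 had an unadjusted p of 0.00127 and did not pass (adjusted p = 0.150, from 0.0364 with array weights to 0.589 over the alternatives). In the same list Apex1, a DNA repair endonuclease, differed by −0.71 ± 0.26 (adjusted p = 0.460) and Anp32a, a subunit of a complex that holds nucleases in check, by 0.71 ± 0.29 (adjusted p = 0.528). Dnase2a, the paralogue of Dnase2b that works in the lysosomes of most cells, was detected on 0 of 3 heterozygous arrays with any of its 3 probes and on at most 2 null arrays, and was not tested.

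The list of cyclin-dependent kinases and their inhibitors also held cyclins, E2f factors and Rb1. Of its 14 genes detected in both groups, 3 had an unadjusted p under 0.05, against 8.13% of all probes detected in both groups. The 2 higher were E2f1 and Ccnd1, a cyclin (0.71 ± 0.29, limma adjusted p = 0.526), and the 1 lower was Cdkn2c. The median difference was 0.26. E2f1, a transcription factor that drives entry into S phase, was at 7.16, 7.37 and 7.22 on heterozygous arrays 1, 2 and 3 and at 8.12, 8.36 and 8.06 on null arrays 4, 5 and 6. Its values were tight in both groups and far apart between them, with a difference of 0.93 ± 0.20 that did not pass (unadjusted p = 0.00120, adjusted p = 0.149, from 0.0203 with array weights to 0.545 over the alternatives). Cdkn2c (p18Ink4c), an inhibitor of the kinases Cdk4 and Cdk6 that lies on the same chromosome as Tdrd7, was at 8.996, 9.67 and 9.15 on heterozygous arrays 1, 2 and 3 and at 8.13, 7.11 and 8.17 on null arrays 4, 5 and 6. The Cdkn2c groups did not overlap, and its difference of −1.47 ± 0.32 did not pass (unadjusted p = 0.00132, adjusted p = 0.150, from 0.0284 with array weights to 0.683). Cdkn1a (p21), the paralogue of Cdkn1b and Cdkn1c, had 1 probe above background on 0 of 3 heterozygous but 3 of 3 null arrays, so it was tested only because of its null arrays and its test is not read here. The mean of its null arrays was higher by at least 1.94-fold, where the bound takes, for each heterozygous array, the dimmest detected signal as the level of Cdkn1a there. This bound concerns group means, which null array 5 raises, and it is not shown for each null array. This probe of Cdkn1a was at 4.76, 7.07 and 5.43 on null arrays 4, 5 and 6, highest on the array with the highest summed level of leucocyte markers, whose part in this was not tested. The other Cdkn1a probes differed by 0.53 and 0.24, were detected on 0 heterozygous arrays and on 2 and 1 null arrays, and were not tested.

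**Figure D4:**
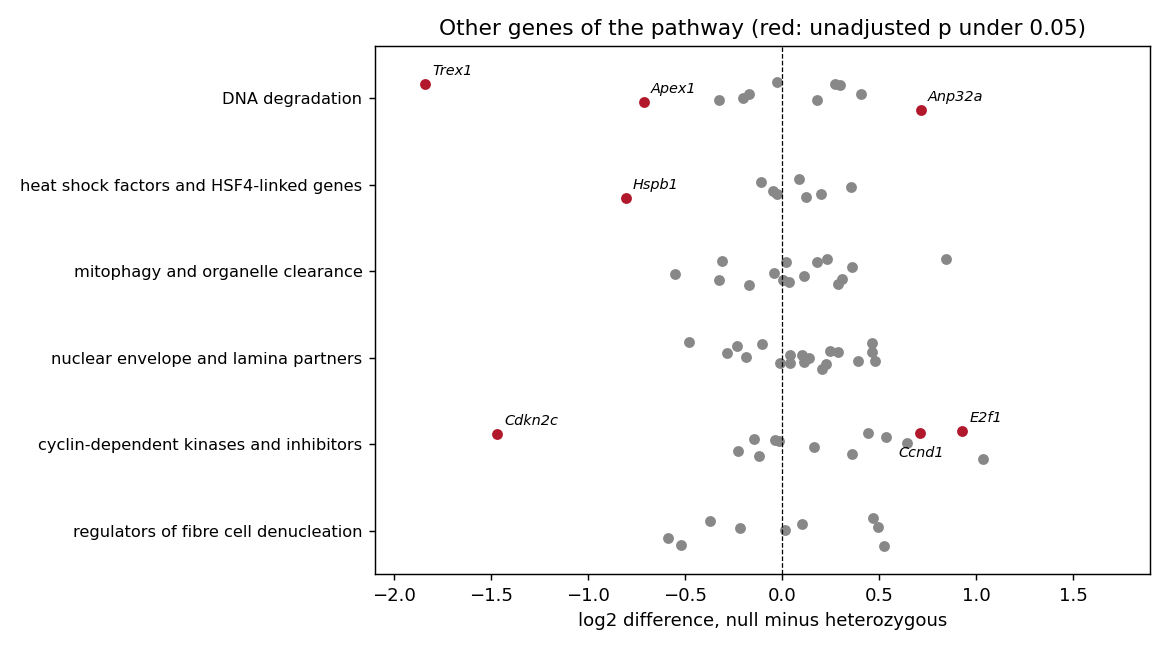
Log2 difference, null minus heterozygous, of each gene tested and detected in both groups in 6 lists of related genes, 1 point per gene, in red where the unadjusted p was under 0.05, with vertical scatter added for legibility. List medians lie between −0.02 and 0.26, and none of the genes passed after adjustment.

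In the other 4 lists no gene passed either. Among heat shock factors and genes tied to Hsf4, 1 of 8 had an unadjusted p under 0.05, Hspb1, a small heat shock protein, at −0.81 ± 0.23 (adjusted p = 0.299), followed by Vim, an intermediate filament protein, at 0.35 ± 0.21 and Hspb8 at 0.20 ± 0.30. Hsf2 was detected on all 6 arrays and differed by −0.11 ± 0.30 (adjusted p = 0.954). Of 15 tested genes of mitophagy and organelle clearance, 0 had an unadjusted p under 0.05. Their smallest p values were those of Gabarapl1, an autophagosome protein, at −0.55 ± 0.26, Sqstm1, the autophagy receptor p62, at 0.85 ± 0.49, and Phb2, an inner mitochondrial membrane protein, at −0.33 ± 0.21 (adjusted p from 0.606 to 0.729). Of 19 partners of the lamina in the nuclear envelope 0 had an unadjusted p under 0.05, with Sun2, which links the lamina to the cytoskeleton, at 0.48 ± 0.24, Syne1 at −0.48 ± 0.25 and Tor1aip2 at 0.46 ± 0.24. Of 9 transcriptional and chromatin regulators of fibre cell differentiation 0 had an unadjusted p under 0.05, and Gata3 differed by 0.50 ± 0.24, Maf by −0.59 ± 0.34 and Sox1 by −0.52 ± 0.32 (adjusted p from 0.614 to 0.708). The medians of these 4 lists ran from 0.02 to 0.11, against 0.01 for all probes tested.

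**Figure D5:**
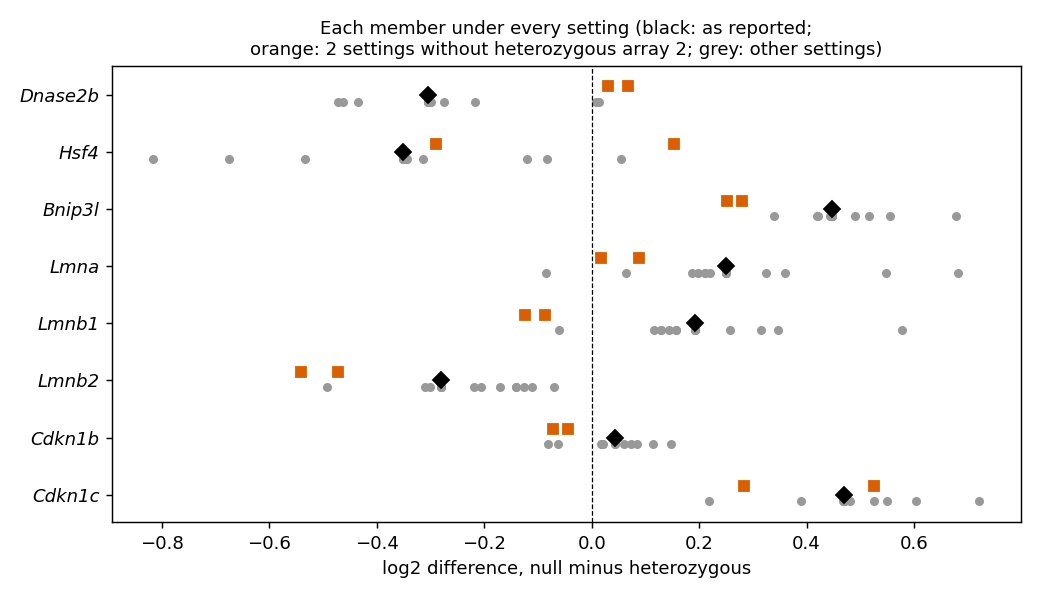
Log2 difference of each main probe, null minus heterozygous, as reported (black) and under the alternative settings, with the 2 settings that leave out heterozygous array 2 in orange and the others in grey. Bnip3l and Cdkn1c stay above 0 and Lmnb2 below 0 in all settings, while the other 5 cross 0 in at least 1 setting.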

How the data were processed

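Biotinylated cRNA was made from DNase-treated lens RNA with the Illumina TotalPrep kit, per the labels' protocols. The scanner and its software were not given in the sources used here. As values, the authors deposited 1 linear intensity per probe and array, taken as neither background-subtracted nor normalized, with a detection p-value beside it per the file headers. Columns of the raw table name the group but not the replicate, so arrays were assigned by group. The deposited series matrix, an alternative source, holds intensities on a linear scale (medians 65.4, 66.2 and 64.8 for heterozygous and 65.7, 66.2 and 64.8 for null replicates 1, 2 and 3). Each column correlated at 1 with a raw column, so higher means brighter, and how it was rescaled or centred is unknown.

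Intensities were processed with neqc (limma 3.58.1, R 4.3.3; offset 16, negative control moments inferred from the detection p-values). Of 45281 probes, 14902 were detected (p under 0.05) on 3 or more of the 6 arrays. These entered a two-sided lmFit and eBayes test, Benjamini-Hochberg adjusted over them, threshold 0.05. Differences of dim probes are shrunk by the offset. Only 3 arrays a group limit precision. Gene names came from the platform annotation. Members, lists and tests were chosen with earlier results of these data known. Named genes were all member probes, Tdrd7, paralogues, the 3 smallest p per list, the 3 nearest profiles and Ccnd1, which was among the genes counted. Promoters came from RefSeq. On the series matrix values, deviations of same-numbered samples correlated at 0.11, 0.37 and 0.58, and those of other pairings at −0.45 to 0.16. Heterozygous replicate 1 correlated more with null replicate 3 (0.16) than with null replicate 1 (0.11). The labels do not say that same-numbered samples are pairs. The replicate block fitted there was chosen from these same data, so its p-values only describe that setting. Alternatives concerned scaling, background, offset, filter, weights, variance model, source of values, pairing and left-out arrays.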

Additional observations from a re-analysis of the deposited data

How the results depend on the processing

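No member probe passed an adjusted p of 0.05 in any of the 17 alternatives. The count of all probes passing, 26, was 3 with arrays scaled to one median, 1 without background correction, 14 with an offset of 50, 0 with no filter on dim probes (limma, 2759 at an unadjusted p under 0.05), 261 with array weights, 9 on the series matrix values without the block and 111 without heterozygous array 2 and null array 5 together. With single arrays left out it ran from 2 to 30. The replicate block gave 35 and changed no other call of a member. Dnase2b turned sign with median scaling (0.014), array weights (0.0078) and without heterozygous array 2 and null array 5 (0.068), Lmna with array weights (−0.085), Lmnb1 with array weights (−0.061) and without both arrays (−0.12), and Cdkn1b with array weights (−0.062) and without both (−0.044). With single arrays left out, differences ran from −0.47 to 0.031 for Dnase2b (its dimmest probe −0.035 to 0.53), −0.82 to 0.15 for Hsf4, −0.088 to 0.35 for Lmnb1 and −0.082 to 0.15 for Cdkn1b. Hspb8 turned with array weights (−0.11), without null array 5 (−0.086, of −0.086 to 0.48 with single arrays left out) and without both arrays (−0.22), and Phb2 with median scaling (0.12). Tdrd7 missed only with no filter (adjusted p = 0.120). Median scaling moved the median of all probes to 0.28, and relative to it Dnase2b stood at −0.27, Cdkn1b at −0.21 and Bnip3l at 0.39. The causes of these changes were not tested. For Cdkn1b and the dim Dnase2b probes the signal over background limits what can be seen.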
